A study of Rattus with 6 samples.

Results

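Angiogenic and trophic factors are secreted proteins by which stromal cells act on vessels, epithelia and nerves. The 8 described here, Vegfc, Pdgfa, Fgf2, Fgf7, Hgf, Bdnf, Angptl4 and Apln, were chosen as the genes with these symbols in the deposited table of 16690 genes, and all 8 were found. Their RNA was followed across 6 libraries of mesenchymal stem cells, stromal cells grown from the bone marrow of wild-type Sprague Dawley rats. A chronic kidney disease (CKD) model gave 3 of the libraries and healthy rats gave the other 3, the controls, and the series asks how gene expression differs between diseased and normal cells. How the disease was induced and the age of the animals are not given in the sources used here.

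Most of these factors signal through receptor tyrosine kinases, which pair up and phosphorylate each other when the ligand binds. VEGF-C acts on VEGFR-3 and drives the growth of lymphatic vessels, PDGF-A acts on PDGFR-alpha of mesenchymal cells, and FGF2 and FGF7 act on FGF receptors together with heparan sulphate. HGF acts on the MET receptor and BDNF on TrkB, whereas apelin acts on a G protein-coupled receptor of vessels and ANGPTL4 inhibits lipoprotein lipase. Mesenchymal stromal cells are known as a source of many of these proteins, which belong to what is called their trophic secretome.

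The 6 libraries held between 34404037 and 46892613 fragments in the table. Values are FPKM, fragment counts scaled to the length of the gene and the depth of the library, so that levels of different genes can be set side by side. Column codes and titles put each library in its group. Library names do so as well, except that of control replicate 3, which names no group and differs in form from the others. The disease model tag of CKD replicate 1, however, reads control and that of control replicate 2 reads CKD. Libraries 2 and 3 of each group were the most alike across genes (Pearson r of 0.996 in CKD and 0.998 in control). CKD replicate 1 lay nearer to the controls (r = 0.946 to 0.967) than to its own group (r = 0.935 and 0.944). Control replicate 1 was in turn most like CKD replicate 1 (r = 0.967), with 0.951 and 0.947 to control replicates 2 and 3. The extract protocol names exosomes as the source of the RNA and the design text names the cells. All 7 stromal marker genes were tested and their summed level ran from 6380 to 11435 FPKM in CKD and from 7569 to 11925 FPKM in control. Col1a1 and Col1a2 weighed most in it, at 5299 and 4328 FPKM in CKD replicate 1, and other markers varied. In replicates 1, 2 and 3, Eng was at 10.8, 20.4 and 21.8 FPKM in CKD and 11.8, 83.4 and 88.8 in control. Nt5e was at 8.79, 38.8 and 36.4 FPKM in CKD and 8.53, 15.9 and 16.1 in control. Genes of haematopoietic cells and macrophages were detected as well. The 18 genes of that list summed to 296, 3313 and 2225 FPKM in CKD replicates 1, 2 and 3, and to 403, 22.2 and 14.4 FPKM in control replicates 1, 2 and 3. Lyz2 weighed most in these sums, at 232, 2224 and 1473 FPKM in the CKD replicates and 271, 8.56 and 3.87 FPKM in the controls. The 6 endothelial genes found summed to between 0.472 and 2.78 FPKM in CKD and between 0.810 and 2.42 FPKM in control, and none of them reached the filter described next. Pecam1, Cdh5, Kdr and Vwf were at 0.172 FPKM or less in every library. Tie1 was at 2.48 and 2.31 FPKM in CKD replicates 2 and 3 and at 0.154 FPKM or less elsewhere, while Tek was at 2.25 and 2.31 FPKM in control replicates 2 and 3 and at 0.644 FPKM or less elsewhere, so the sums hold opposite patterns.

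CKD was compared with control in 1 limma fit on log2(FPKM + 1) over all genes that reached 1 FPKM in 3 or more libraries, with Benjamini-Hochberg adjustment and a threshold of 0.05. Fold changes on this scale understate the change of genes near or under 1 FPKM. Of 10638 tested genes, 142 were called higher (1.33%) and 78 lower (0.733%), and with libraries scaled to the same upper quartile the split was 125 higher and 110 lower. Of the 8 factors, 6 passed the filter and none was called in either direction. Fgf2 and Apln did not pass it and are given by their values.

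In control cells the factors fell into 3 tiers of level. Fgf7 was the most abundant at 97.1 ± 0.484 FPKM, followed by Pdgfa at 21.0 ± 2.13 and Vegfc at 12.7 ± 1.80 (SD, n = 3 each), with no overlap between neighbours. Hgf, Bdnf, Angptl4 and Fgf2 had means between 0.736 and 1.72 FPKM, with ranges that overlapped between neighbours in that order. Apln stood lowest at 0.0221 ± 0.0183 FPKM. In CKD cells Fgf7, Pdgfa and Vegfc kept the first ranks, and Angptl4 came next at 5.65 ± 3.06 FPKM, followed by Apln at 1.68 ± 1.52.

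**Figure D1:**
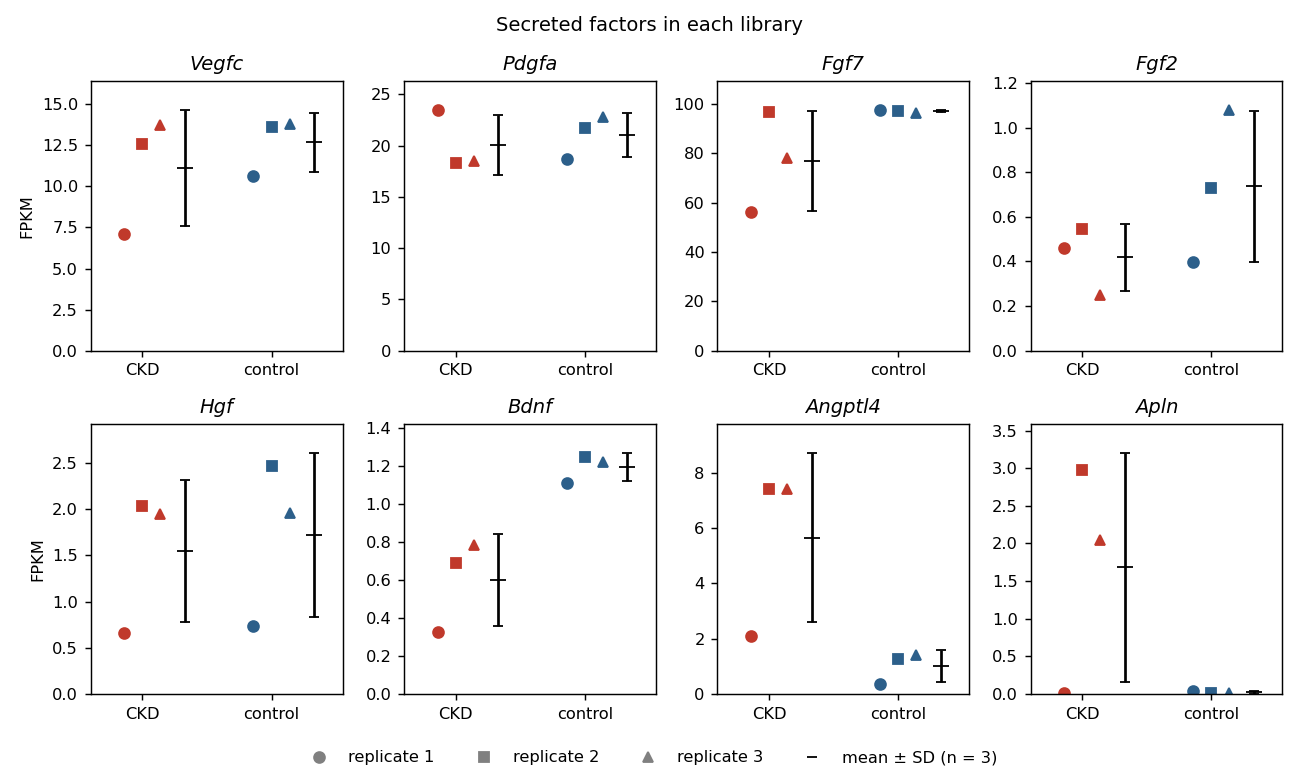
Level in FPKM (linear axes from 0, 1 panel per gene) of the 8 factors in each of the 3 CKD and 3 control libraries, with the mean and SD of each group beside the points. All CKD libraries lie above all controls for Angptl4, as for 18.3% of the tested genes, and below them for Bdnf, as for 9.59%. Bdnf reached the filter through its control libraries alone. Apln is high in CKD replicates 2 and 3 only, at 2.98 and 2.05 FPKM. These 2 libraries lie above the other 4 for 28.7% of all genes.

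Angptl4 (NCBI Gene 362850) encodes a secreted inhibitor of lipoprotein lipase that is induced by fasting, by fatty acids and by low oxygen. It was at 2.11, 7.43 and 7.40 FPKM in CKD replicates 1, 2 and 3, and at 0.351, 1.26 and 1.42 FPKM in control replicates 1, 2 and 3. Every CKD library lay above every control, with the lowest CKD value in replicate 1 and the lowest control value in replicate 1 as well. The mean was 5.60-fold higher in CKD, and the log2 fold change was 1.63 ± 0.46 SE with a 95% interval from 0.50 to 2.77 and an unadjusted p of 0.0127. It did not pass over all genes (limma adjusted p = 0.131). All CKD libraries lay above all controls for 18.3% of the tested genes, so the separation by itself is a common one here.

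The call of Angptl4 rested on which libraries were fitted. Without CKD replicate 1 the log2 fold change was 2.11 and was called (limma adjusted p = 0.0161), in a fit that called 10.7% of all genes higher. Without CKD replicate 2 or 3 it was 1.39 and 1.40 (adjusted p = 0.373 and 0.381), in fits that called 3 genes and 1 gene higher. In limma-voom on recovered fragment counts, which adds only a small offset to the counts, it was 2.48 (adjusted p = 0.177). When libraries were grouped by their disease model tags, it was 1.33 (adjusted p = 0.682), in a fit that called 0 genes higher. Without the 2 libraries of conflicting tag it was 2.22 (limma adjusted p = 0.0625). With the replicate number as a block it was 1.63 (0.0600), and with libraries that share a name start averaged 1.74 (0.0560). Angptl4 was not called in these fits. In the authors' deposited table its log2 fold change is 2.39, with q = 0.00478.

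Apln (NCBI Gene 58812) encodes the precursor of apelin, a peptide that acts on endothelial and heart cells and is made by sprouting vessels. It was at 0.0128, 2.98 and 2.05 FPKM in CKD replicates 1, 2 and 3, which are 2, 415 and 357 fragments. In control replicates 1, 2 and 3 it was at 0.0422, 0.0178 and 0.00646 FPKM, which are 8, 3 and 1 fragments. CKD replicate 1 therefore lay inside the range of the controls, while CKD replicates 2 and 3 lay far above it. The 95% Poisson interval of CKD replicate 1, from 0.00155 to 0.0463 FPKM, contains all 3 control values, and such intervals cover counting error only. With 2 of 6 libraries at 1 FPKM or more the gene missed the filter, and the exact permutation test of log2(FPKM + 1) gave p = 0.3 (two-sided), where 3 against 3 libraries allow no less than 0.1.

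The authors' deposited table gives Apln a q-value of 0.000356 at a log2 fold change of 6.12. The difference between group means of log2(FPKM + 1) was 1.18 and became 2.90 with a pseudocount of 0.1. It was 1.77 without CKD replicate 1, 0.78 without CKD replicate 2 and 0.97 without CKD replicate 3. The receptor gene Aplnr was not among the genes of the table, and Apela, the other ligand of that receptor, was at 0.189 FPKM or less in every library.

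CKD replicates 2 and 3, the libraries high in Apln and Angptl4, were also those with the highest summed level of haematopoietic genes. In 17 of the 18 genes of that list, both libraries lay above the other 4, as they did in 19 of 23 genes of the hypoxia response. Over the whole table this held for 28.7% of genes, and among the 8 factors it held for Angptl4 and Apln. The hypoxia genes summed to 1323, 2739 and 2630 FPKM in CKD replicates 1, 2 and 3, and to 1463, 1364 and 1366 FPKM in control replicates 1, 2 and 3. With a covariate for the mean of the haematopoietic genes, the log2 fold change of Angptl4 was 1.18 (limma adjusted p = 0.637). That fit called 7 of all tested genes higher. The part of these genes in the levels of Apln and Angptl4 was not tested, and more cells of a type cannot be told apart from more RNA per cell in bulk libraries. Of the endothelial genes, Tie1 was high in the same libraries as Apln (2.48 and 2.31 FPKM), while Pecam1, Cdh5, Kdr and Vwf were at 0.172 FPKM or less in all 6 libraries. Tek went the other way, at 0.0954 and 0.0864 FPKM in CKD replicates 2 and 3 and at 2.25 and 2.31 FPKM in control replicates 2 and 3.

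**Figure D2:**
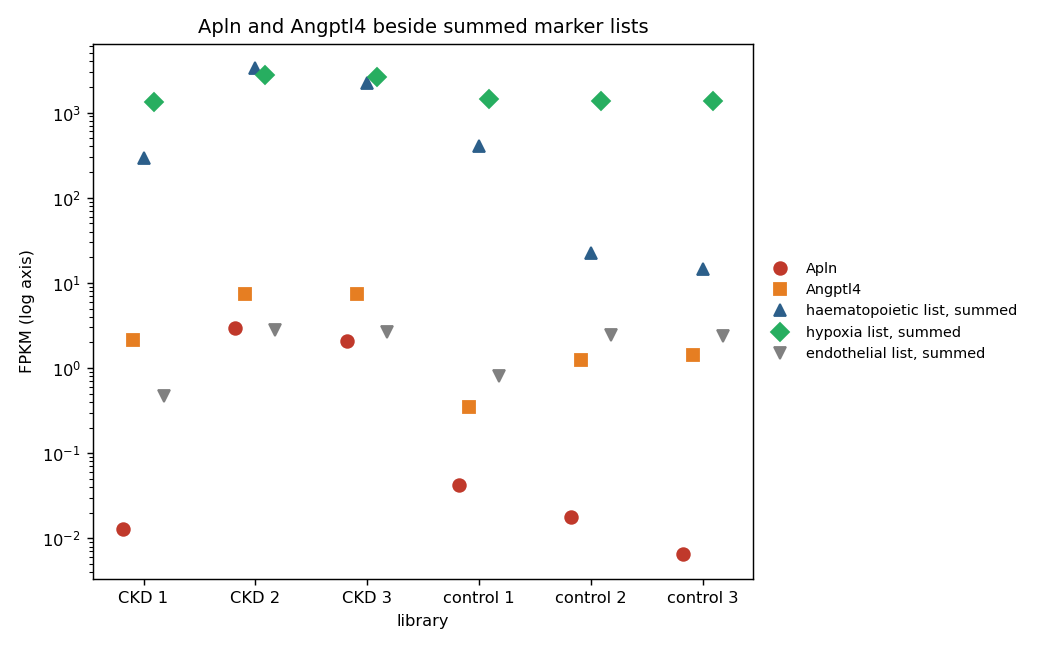
Level in FPKM (log axis) of Apln and Angptl4 and the summed FPKM of the haematopoietic, hypoxia and endothelial gene lists in each of the 6 libraries, with points shifted sideways for legibility. Apln is at 2.98 and 2.05 FPKM in CKD replicates 2 and 3, where the haematopoietic sum is 3313 and 2225 FPKM, and at 0.0422 FPKM or less in the other libraries.

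Bdnf (NCBI Gene 24225), a neurotrophin that supports neurons and is made by several stromal cell types, was the factor with the clearest separation in the lower direction. It was at 0.329, 0.688 and 0.786 FPKM in CKD replicates 1, 2 and 3, and at 1.11, 1.25 and 1.22 FPKM in control replicates 1, 2 and 3. Every CKD library lay below every control, with between 81 and 216 fragments against between 299 and 333. The CKD mean was 0.503 times the control mean, and the log2 fold change was -0.47 ± 0.13 SE with a 95% interval from -0.80 to -0.13 and an unadjusted p of 0.0142. It did not pass over all genes (limma adjusted p = 0.135). Bdnf reached the filter through its control libraries alone, so that a difference was built into its selection for the test, and all CKD libraries lay below all controls for 9.59% of the tested genes.

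On other scales the estimate for Bdnf was further from 0. The log2 fold change was -0.95 with a pseudocount of 0.1 and -1.15 in limma-voom on recovered counts, and neither was called (adjusted p = 0.175 and 0.115). Grouped by the tags, the libraries gave 0.04. The authors' deposited table gives Bdnf a q-value of 0.0242 at a log2 fold change of -1.08. Of all genes listed there, 6.72% have a q-value under 0.05 in the higher direction and 4.60% in the lower, and 3 of the 8 factors do, with Angptl4 and Apln higher and Bdnf lower.

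The fibroblast growth factors did not pass either. Fgf7 (NCBI Gene 29348), the keratinocyte growth factor by which mesenchyme acts on epithelia, was at 56.0, 96.6 and 77.9 FPKM in CKD replicates 1, 2 and 3, and at 97.4, 97.3 and 96.5 FPKM in control replicates 1, 2 and 3. The 3 controls lay within 1 FPKM of each other, while the CKD libraries spread widely, and CKD replicate 2 reached into the control range. The log2 fold change was -0.37 ± 0.20 SE (limma adjusted p = 0.329, 95% interval -0.85 to 0.12), and it was -0.16 without CKD replicate 1 and 0.16 with groups by the disease model tag. Its q-value in the authors' deposited table is 0.177, at a log2 fold change of -0.43.

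Fgf2 (NCBI Gene 54250), a mitogen of fibroblasts and endothelial cells without a classical signal peptide, was hardly detected. It was at 0.459, 0.544 and 0.251 FPKM in CKD replicates 1, 2 and 3, and at 0.399, 0.731 and 1.08 FPKM in control replicates 1, 2 and 3. The groups overlapped through control replicate 1, and the values rested on between 11 and 42 fragments. The 95% Poisson interval ran from 0.126 to 0.450 FPKM in the lowest library and from 0.778 to 1.46 FPKM in the highest. The exact permutation test gave p = 0.3 (two-sided), and with no less than 0.1 possible it could not have passed the threshold. Nudt6, which lies on the other strand and overlaps Fgf2, was at 1.69 ± 0.202 FPKM in CKD and 2.41 ± 0.413 FPKM in control, and since the strand setting of the counting is not given in the sources used here, fragments of the overlap cannot be assigned with certainty.

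Pdgfa (NCBI Gene 25266), the A chain of platelet-derived growth factor and a mitogen of mesenchymal cells, was at 23.5, 18.3 and 18.5 FPKM in CKD replicates 1, 2 and 3, and at 18.7, 21.7 and 22.8 FPKM in control replicates 1, 2 and 3. The ranges overlapped, with CKD replicate 1 the highest of all libraries. The log2 fold change was -0.07 ± 0.13 SE (limma adjusted p = 0.798), and its 95% interval from -0.39 to 0.25 leaves room for a change of that size in either direction.

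Without both first replicates, 4 libraries in 2 pairs of alike libraries, Pdgfa was called lower at a log2 fold change of -0.26 (limma adjusted p = 0.00704). The same fit called Bdnf lower (-0.37, adjusted p = 0.00977) and Angptl4 higher (1.85, adjusted p = 3.47e-06). Bdnf had reached the filter through its control libraries alone, so a difference in that direction was built into its selection. It called 34.7% of all tested genes higher and 20.3% lower, so that calls were common in it.

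Vegfc (NCBI Gene 114111), the ligand of lymphatic growth, was at 7.10, 12.5 and 13.7 FPKM in CKD replicates 1, 2 and 3, and at 10.6, 13.6 and 13.8 FPKM in control replicates 1, 2 and 3. Both first replicates were the lowest of their group, and CKD replicates 2 and 3 lay inside the control range. The log2 fold change was -0.21 ± 0.25 SE (limma adjusted p = 0.654, 95% interval -0.83 to 0.40). It was 0.05 without CKD replicate 1 and -0.06 without both first replicates, so its sign depended on which libraries were fitted.

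Hgf (NCBI Gene 24446), the hepatocyte growth factor or scatter factor, split by library rather than by group. It was at 0.661, 2.03 and 1.95 FPKM in CKD replicates 1, 2 and 3, and at 0.735, 2.46 and 1.96 FPKM in control replicates 1, 2 and 3. Both first replicates were under 1 FPKM and the other libraries between 1.95 and 2.46 FPKM, and the ranges of the groups overlapped. The log2 fold change was -0.09 ± 0.35 SE (limma adjusted p = 0.910, 95% interval -0.95 to 0.78), and it turned positive without CKD replicate 1 (0.20) or control replicate 2 (0.12) and was 0.00 without control replicate 3.

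**Figure D3:**
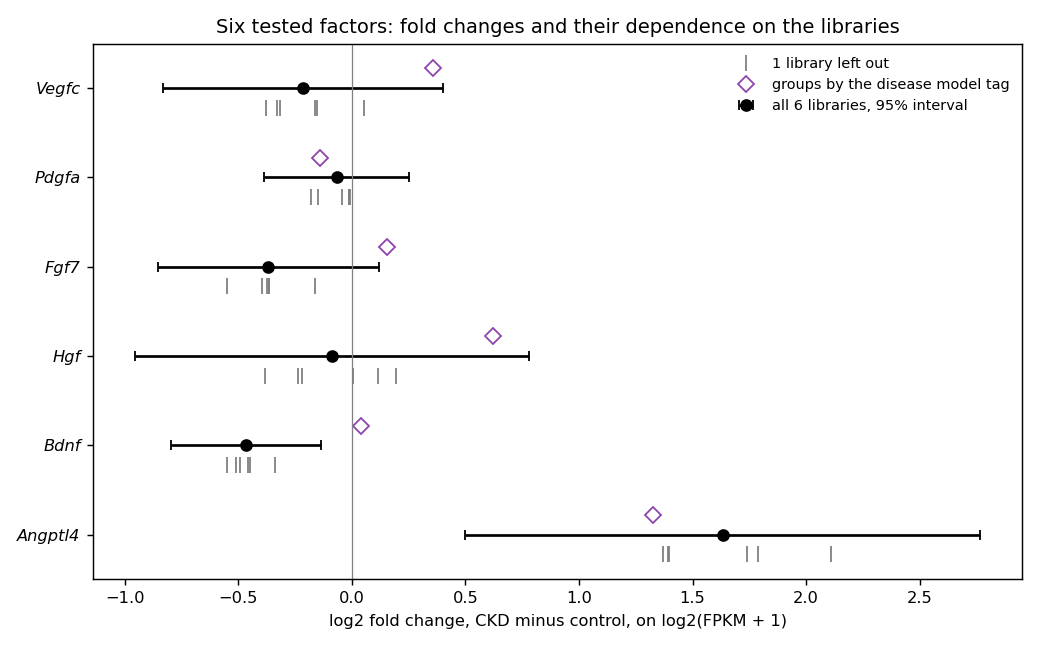
Log2 fold change of CKD minus control on log2(FPKM + 1) for the 6 tested factors (black points, 95% intervals from limma), with the values after leaving out 1 library (grey ticks) and with groups by the disease model tag (open diamonds). The intervals of Angptl4 (0.50 to 2.77) and Bdnf (-0.80 to -0.13) do not cross 0, although neither passed after adjustment. Bdnf reached the filter through its control libraries alone. With 1 library left out the estimates of Vegfc and Hgf fall on both sides of 0, and with groups by the tag those of Fgf7 (0.16) and Bdnf (0.04) turn positive too.

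Receptors and binding partners gave the only called genes around these factors. Met (NCBI Gene 24553), the receptor of HGF, was at 2.04, 1.64 and 1.90 FPKM in CKD replicates 1, 2 and 3, and at 4.99, 4.74 and 4.40 FPKM in control replicates 1, 2 and 3. All CKD libraries lay below all controls, as for 9.59% of the tested genes, and Met was called lower (log2 fold change -1.0 ± 0.09 SE, limma adjusted p = 0.0181). Mst1r, the related receptor of macrophage-stimulating protein, averaged 0.486 ± 0.103 in CKD and 2.05 ± 0.196 FPKM in control and was called lower too (-1.04 ± 0.10, adjusted p = 0.0189). Mst1r reached the filter through its control libraries alone, and its log2 fold change was -1.88 with a pseudocount of 0.1.

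Sort1 encodes sortilin, which binds neurotrophin precursors and helps sort BDNF for secretion. It was at 21.7, 19.0 and 20.9 FPKM in CKD replicates 1, 2 and 3, and at 12.4, 9.94 and 9.25 FPKM in control replicates 1, 2 and 3. Sort1 was called higher, by 0.91 ± 0.12 SE on the log2 scale (limma adjusted p = 0.0399). The 3 calls were lost when replicate 2 or 3 of either group was left out, with adjusted p between 0.0976 and 0.223. Those fits called few genes at all, between 1 and 3 higher and between 5 and 7 lower of 10638. The log2 fold changes stayed between 0.83 and 0.96 for Sort1 and at -0.94 or below for Met and Mst1r. All 3 calls were also lost with the haematopoietic covariate (adjusted p = 0.127 for both Met and Mst1r and 0.224 for Sort1). That fit called 7 genes higher and 11 lower. Sort1 missed the threshold as well in limma-voom (adjusted p = 0.0556), with upper quartile scaling (0.0509), with libraries that share a name start averaged (0.0518) and when the 2 libraries of conflicting tag were left out (0.0955).

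The FGF receptor gene Fgfr1 was at 18.9, 32.8 and 32.8 FPKM in CKD replicates 1, 2 and 3, and at 52.1, 70.7 and 72.0 FPKM in control replicates 1, 2 and 3. All CKD libraries lay below all controls, as for 9.59% of the tested genes, and the gene missed the threshold (log2 fold change -1.20 ± 0.25 SE, limma adjusted p = 0.0800). Fgfr2, whose epithelial form binds FGF7, averaged 5.65 ± 1.04 and 9.32 ± 8.71 FPKM in CKD and control, with the control mean carried by control replicate 1 at 19.4 FPKM.

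Pdgfra, the receptor of PDGF-A, averaged 35.7 ± 16.4 in CKD and 59.1 ± 16.7 FPKM in control (limma adjusted p = 0.342). Pdgfrb averaged 134 ± 15.0 and 97.3 ± 33.4 FPKM (adjusted p = 0.341), with every CKD library above every control, as for 18.3% of the tested genes. Nrp2, a co-receptor of VEGF-C, averaged 41.4 ± 5.07 and 59.0 ± 31.8 FPKM (adjusted p = 0.552). Flt4, which encodes VEGFR-3, was at 1.24 and 1.41 FPKM in control replicates 2 and 3 and at 0.703 FPKM or less elsewhere. Kdr, which encodes VEGFR-2, was at 0.0366 FPKM or less and Ntrk2, which encodes TrkB, at 0.246 FPKM or less in every library. The neurotrophin receptor gene Ngfr was not among the genes of the table.

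Lpl encodes lipoprotein lipase, the enzyme that ANGPTL4 inhibits. It was at 5.83, 58.5 and 70.3 FPKM in CKD replicates 1, 2 and 3, and at 5.99, 0.964 and 0.836 FPKM in control replicates 1, 2 and 3. CKD replicate 1 and control replicate 1 were alike, and the gene missed the threshold at a log2 fold change of 3.39 ± 1.04 SE (limma adjusted p = 0.148). CKD replicates 2 and 3 were high in Lpl as in Angptl4 and in haematopoietic genes, whose part was not tested.

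**Figure D4:**
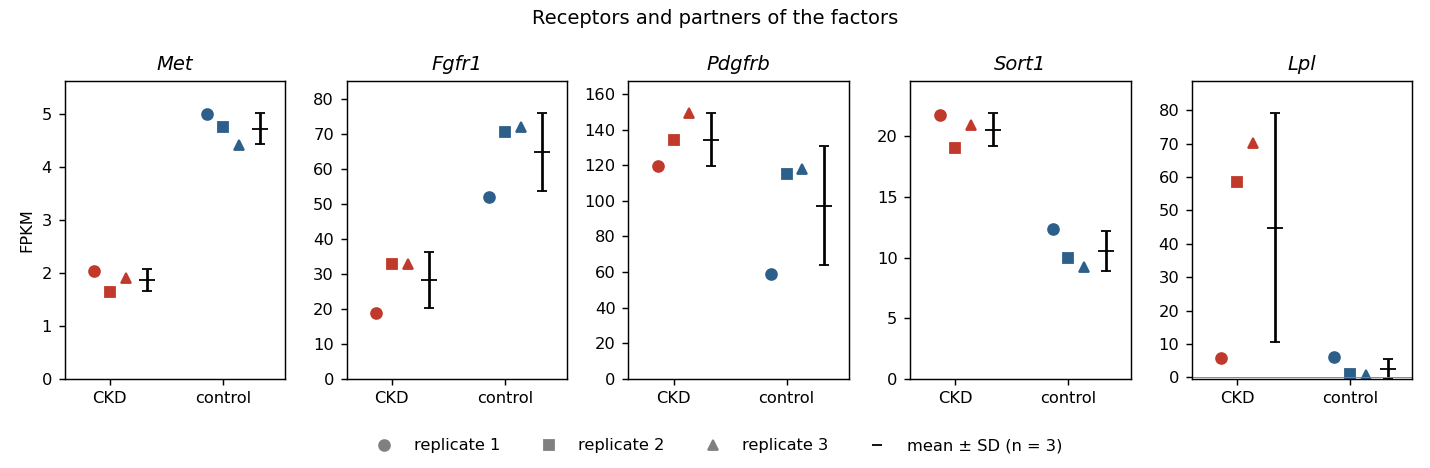
Level in FPKM (linear axes) of the HGF receptor gene Met, the FGF receptor gene Fgfr1, the PDGF receptor gene Pdgfrb, Sort1 and Lpl in each CKD and control library, with group means and SD. Met lies between 1.64 and 2.04 FPKM in CKD and between 4.40 and 4.99 FPKM in control, and Lpl is high in CKD replicates 2 and 3.

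Close relatives of the factors did not pass either. Vegfa, the main ligand of blood vessel growth, was the most abundant of Vegfa, Vegfb, Vegfc and Vegfd in CKD at 57.6 ± 12.2 FPKM, against 51.5 ± 23.7 FPKM in control (limma adjusted p = 0.724), and both first replicates were the highest of their group at 71.4 and 78.9 FPKM. Vegfd, the nearest relative of Vegfc, was lowest in both first replicates, at 1.59, 44.1 and 45.6 FPKM in CKD replicates 1, 2 and 3 and 11.4, 108 and 113 FPKM in control replicates 1, 2 and 3 (adjusted p = 0.547). Vegfb averaged 8.44 ± 0.325 in CKD and 8.90 ± 1.44 FPKM in control (adjusted p = 0.816).

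Fgf10, the closest relative of Fgf7, was at 11.7, 27.2 and 32.0 FPKM in CKD replicates 1, 2 and 3, and at 3.54, 9.96 and 7.48 FPKM in control replicates 1, 2 and 3. Its CKD libraries all lay above the controls, as they did for 18.3% of the tested genes. Fgf10 missed the threshold at a log2 fold change of 1.60 ± 0.48 SE (limma adjusted p = 0.142). Pdgfc and Pdgfd averaged 15.8 ± 5.61 and 8.28 ± 2.85 FPKM in CKD, and 13.4 ± 1.73 and 4.92 ± 1.60 FPKM in control (adjusted p = 0.691 and 0.243). Pdgfb was at 0.119, 0.814 and 1.14 FPKM in CKD replicates 1, 2 and 3 and at 0.156 FPKM or less in control. Ntf3, a neurotrophin gene like Bdnf, was not among the genes of the table.

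Gene lists around the factors were described beside all tested genes, of which 59.4% were positive in log2 fold change (median 0.05). Of all tested genes, 1.33% were called higher and 0.733% lower. Of 13 tested ligands of the same families none was called, 9 were positive and the median was 0.18. Of 11 tested receptors and co-receptors, Sort1 was called higher and Met and Mst1r lower, with a median of -0.33. Mst1r was tested through its control libraries alone. Of 13 tested genes of ligand processing and inhibition, which also hold Sort1, 1 was called higher, with a median of 0.49. None of 16 heparan sulphate partners was called (median 0.03), nor any of 15 feedback genes of receptor tyrosine kinase signalling (median 0.06).

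Of 20 tested hypoxia response genes, 18 were positive and none was called, with a median of 0.60 and 6 at an unadjusted p under 0.05. Of 12 tested genes of the PPAR list, which holds targets and the receptor genes Pparg and Ppard, 6 were positive and none was called (median 0.03). Of these, 3 were at an unadjusted p under 0.05, Fabp4, Lpl and Pparg, and Pparg reached the filter through its CKD libraries alone. All 14 tested haematopoietic genes were positive and none was called (median 3.28, 9 at an unadjusted p under 0.05). Of the 7 stromal markers, 2 were positive and none was called (median -0.19). Over all tested genes, 1555 were higher and 799 lower at an unadjusted p under 0.05.

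The genes whose levels most resembled each tested factor were sought among tested genes with a mean of at least 10 FPKM in 1 group, by Pearson r of log2(FPKM + 1) over the 6 libraries. With 4879 candidates and 6 points that share their libraries, these are descriptions. Vegfc was followed most closely by Nr3c1, the glucocorticoid receptor gene (r = 0.998), and Olfml3 (0.993). Hgf was followed by Ddrgk1 (0.996) and Gsr, which encodes glutathione reductase (0.993), and Fgf7 by Sub1 (0.997) and Ube2b (0.988). Pdgfa was followed by Fam89b (0.997) and the kinase gene Map4k3 (0.992), and Bdnf by Bmpr1a, a BMP receptor gene (0.998), and Pir (0.989). Angptl4 was followed by Mgat4b, a glycosyltransferase gene (0.998) and Col18a1 (0.997), which encodes the collagen from which endostatin is cut. Col18a1 was at 13.0, 83.2 and 96.2 FPKM in CKD replicates 1, 2 and 3 and at 2.97, 9.63 and 9.01 FPKM in control replicates 1, 2 and 3. Its likeness to Angptl4 is what it was picked for. CKD replicates 2 and 3 lay above the other 4 libraries for 28.7% of all genes.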

How the data were processed

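RNA sequencing of poly-A selected, stranded libraries was deposited by the authors as 1 table with an FPKM value per gene and library, group means of normalized counts, and a fold change, log2 fold change, p-value and q-value for CKD against control, per the file headers. The submitters' processing notes name HISAT2 2.1.0 and HTSeq 0.11.2, FastQC 0.11.9 and SAMtools 1.9, and DESeq 1.34.1 as well as DESeq2 1.22.2, without their order, and the rat build mRatBN7.2. Decimal commas were read as points. The lowest mean normalized count in the table was 1.03, so rarer genes are not covered.

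Groups and replicate numbers follow the column codes, although CKD replicate 3 has the number 4 in its title. Nothing in the labels ties libraries to separate animals, and the names of CKD replicates 1 and 3 share a start, as do those of control replicates 1 and 2, so the spread behind each p-value may be technical. Log2(FPKM + 1) was fitted by limma 3.58.1 in R 4.3.3 with a mean-variance trend on the 10638 genes that reached 1 FPKM in 3 or more libraries, two-sided, and the code was tested on simulated data. Fragment counts were recovered from the FPKM values and the group means of normalized counts. All 100140 values were whole within 0.01, and the counts served for depth, Poisson intervals and limma-voom.

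The members, the 10 gene lists and the rule for named genes were chosen with earlier results of these data known. The rule names the members, fixed receptors and relatives, up to 4 called genes per list, and the 2 genes most alike in pattern to each tested member. One of the fixed relatives is not reported here. No genome sequence was used here, so neither promoters nor coordinates are given.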

Additional observations from a re-analysis of the deposited data

How the results depend on the processing

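The number of calls over all genes depended on the libraries. Leaving out 1 library gave between 1 and 1139 higher and between 5 and 546 lower genes, with the most higher without CKD replicate 1 and the most lower without control replicate 1. Counts were 81 higher without a filter and 50 higher and 43 lower with a filter of 5 FPKM. They were 237 higher without both libraries with conflicting tags, 3689 and 2162 without both first replicates, 70 higher in limma-voom, and 7 and 11 with the haematopoietic covariate. In limma with groups by the disease model tag, 0 genes were called in either direction, with 445 higher and 196 lower at an unadjusted p under 0.05.

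With the replicate number as a block, 60 higher and 28 lower genes were called and Met and Sort1 lost their calls (adjusted p = 0.0504 and 0.0596). Deviations of same-numbered libraries correlated at 0.036, -0.031 and 0.109, so the numbers were not taken as pairs, and 2 of 3 numbers correlated best with their own.

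Leaving out 1 library moved the log2 fold change of Vegfc from -0.38 to 0.054, Hgf from -0.38 to 0.20, Fgf7 from -0.55 to -0.16, Pdgfa from -0.18 to -0.01, Bdnf from -0.55 to -0.34 and Angptl4 from 1.37 to 2.11. Signs turned without both libraries with conflicting tags for Vegfc (0.11) and Hgf (0.40). They turned with groups by the tag for Vegfc (0.36), Hgf (0.62), Fgf7 (0.16) and Bdnf (0.041), and with the haematopoietic covariate for Pdgfa (0.24). Without both first replicates, calls were gained by Angptl4 (1.85), Bdnf (-0.37) and Pdgfa (-0.26), of which Bdnf had reached the filter through its control libraries alone. A pseudocount of 0.1 moved the differences of Fgf2 to -0.65 and Apln to 2.90. The cause of these changes was not tested. Alternatives for Met, Mst1r and Sort1 were added after seeing the data. With groups by the tag all 3 lost their calls (-0.39, -0.27 and 0.21), in a fit that called 0 genes.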
